A study of Mus musculus with 8 samples.

Results

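The genes described here are the core signalling genes of the Wnt pathway: the secreted Wnt ligands, the R-spondins, their receptors and co-receptors, the secreted and intracellular inhibitors, and the TCF/LEF transcription factors. They were chosen by gene symbol alone, as every row of the deposited table named *Wnt*, *Fzd*, *Sfrp*, *Dkk*, *Axin*, *Lrp5* or *Lrp6*, *Tcf7*, *Tcf7l1* or *Tcf7l2*, *Lef1*, *Rspo*, *Lgr4* to *Lgr6*, *Wif1*, *Znrf3* or *Rnf43*, which gave 49 of the 18990 genes. Of these, 41 had on average at least 1 CPM (reads scaled to a common library total) over the 8 libraries and were tested, and 8 did not. Their expression was measured by RNA-seq of total RNA, after ribosomal RNA depletion, in mouse embryonic fibroblasts (MEFs) on the way to induced pluripotent stem cells.

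The MEFs were wild-type C57/BL6 cells at an early passage, transduced with a doxycycline-inducible lentiviral cassette that carries *Oct4*, *Sox2*, *Klf4* and *c-Myc* (OSKM) and with an rtTA lentivirus, both at an MOI of 1. Before induction they received 40 nM of a pool of 3 siRNAs against *Ncor1*, which encodes a nuclear receptor corepressor, or against *Oct4*. Both knockdowns were sampled at day 3 and day 6, with 2 libraries in each of the 4 groups. All groups were grown in doxycycline at 2 ug/mL, 3 uM Chiron (an inhibitor of GSK3), 0.25 uM Alk5i (an inhibitor of TGFb signalling), 50 ug/mL ascorbic acid and LIF. The GSK3 inhibitor thus acted on the Wnt pathway itself in every library, and no non-targeting control was analysed here. Each knockdown was therefore compared only with the other. The cells of a culture were a mixture in which a minority reprograms, and the cassette also expresses the *Oct4* that the siRNA targets. The study calls its replicates biological; the labels only number them, and p-values measure the spread between these 2 libraries per group.

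Wnt proteins are lipid-modified ligands that bind a Frizzled receptor together with the LRP5 or LRP6 co-receptor. Binding holds back the destruction complex, in which the Axin scaffolds bring β-catenin to the kinase GSK3, and the stabilised β-catenin then enters the nucleus and activates target genes with the TCF/LEF factors. R-spondins, bound to LGR4, LGR5 or LGR6, protect Frizzled receptors from the ubiquitin ligases ZNRF3 and RNF43, whereas SFRP proteins and WIF1 bind the ligands, and most Dickkopf (DKK) proteins block the co-receptors. In pluripotent stem cells GSK3 inhibition supports self-renewal, and *Axin2*, *Lef1*, *Tcf7*, *Lgr5*, *Rnf43* and *Znrf3* are themselves widely used target genes of β-catenin.

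The windows of 250 bases upstream of a RefSeq gene start (GRCm38.p6) are shown for 4 members that stand for different behaviours below: *Axin2*, which was lower in the *siOct4*-labelled libraries at day 6, *Lef1*, which was higher, *Sfrp2*, an inhibitor that was lower, and *Lgr4*, a receptor that was slightly higher. Motifs of 3 kinds were searched on both strands, namely the TCF/LEF heptamers AACAAAG or ATCAAAG or TACAAAG or TTCAAAG, the E-box CACGTG that MYC can bind, and the octamer ATGCAAAT that OCT4 can bind. Capitals mark the matches, and all 4 windows lie on the + strand with the RefSeq start after the last base. For *Lef1* that start is an internal one.
*Axin2* chr11:108920099-108920348: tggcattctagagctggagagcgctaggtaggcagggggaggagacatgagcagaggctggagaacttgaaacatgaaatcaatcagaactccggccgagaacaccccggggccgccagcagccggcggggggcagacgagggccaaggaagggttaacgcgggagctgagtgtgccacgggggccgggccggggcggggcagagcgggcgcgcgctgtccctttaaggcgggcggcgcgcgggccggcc
*Lef1* internal start chr3:131156044-131156293: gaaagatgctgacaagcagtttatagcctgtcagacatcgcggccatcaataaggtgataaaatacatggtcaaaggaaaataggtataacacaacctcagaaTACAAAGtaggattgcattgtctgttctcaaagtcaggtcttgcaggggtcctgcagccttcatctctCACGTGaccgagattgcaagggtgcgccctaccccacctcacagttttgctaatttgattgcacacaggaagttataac
*Sfrp2* chr3:83766071-83766320: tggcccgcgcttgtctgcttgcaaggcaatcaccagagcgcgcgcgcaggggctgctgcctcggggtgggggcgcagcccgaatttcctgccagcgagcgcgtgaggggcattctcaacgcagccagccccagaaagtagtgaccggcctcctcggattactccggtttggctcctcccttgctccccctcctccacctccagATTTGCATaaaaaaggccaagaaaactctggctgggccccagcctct
*Lgr4* chr2:109917397-109917646: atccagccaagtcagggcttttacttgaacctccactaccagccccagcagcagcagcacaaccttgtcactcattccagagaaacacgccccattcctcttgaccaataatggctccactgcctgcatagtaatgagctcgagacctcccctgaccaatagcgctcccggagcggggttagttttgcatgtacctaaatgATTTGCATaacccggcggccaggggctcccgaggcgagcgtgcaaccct

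*Lef1* had 4 windows in the table, and the 3 nearer the start of the gene held none of the motifs. The *Lef1* window printed, chosen because it holds matches, had TACAAAG at 147 to 141 bases and CACGTG at 79 to 74 bases upstream of an internal start. The *Sfrp2* and *Lgr4* windows each held the octamer on the other strand (ATTTGCAT), at 47 to 40 and at 49 to 42 bases upstream, and the *Axin2* window held none of these letters. Over all 32851 windows of this length, 14.8% held a TCF/LEF heptamer, 6.02% the E-box and 1.6% the octamer. The RefSeq promoter table had 39 windows for 30 of the 49 members. A heptamer was found for 6 of these genes (*Dkk1*, *Fzd7*, *Lef1*, *Tcf7l2*, *Wnt11*, *Wnt5b*), the E-box for 5 (*Fzd9*, *Lef1*, *Rspo4*, *Wif1*, *Wnt9a*) and the octamer for 2 (*Lgr4*, *Sfrp2*). Both genes with the octamer are among those printed, so the printed windows are no fair sample of the members for it. Counted by window, as the shares over all windows are, these were 6, 5 and 2 of the 39. A match describes the letters of a window and was not tested as a binding site.

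The targeted genes were examined in every library to check the labels. *Ncor1* stood at 135 and 146 CPM in the *siNcor1* libraries and 226 and 245 CPM in the *siOct4*-labelled libraries at day 3. By day 6 *Ncor1* stood at 153 and 156 CPM in *siNcor1* against 160.4 and 140.3 CPM. It was therefore lower in both *siNcor1* libraries at day 3 (log2 fold change 0.74, SE 0.12, adjusted p = 0.0139, given as the *siOct4*-labelled libraries minus *siNcor1*, as are all differences between knockdowns here), and at day 6 the groups overlapped. Without any 1 of the 4 day 3 libraries the call at day 3 was lost, with a log2 fold change of *Ncor1* between 0.68 and 0.80 and an adjusted p of up to 0.132. It was also lost without the trend of the variance (adjusted p = 0.0806). *Pou5f1*, the gene of OCT4, stood at 197 and 205 CPM in the *siNcor1* libraries and 185 and 197 CPM in the *siOct4*-labelled libraries at day 3. By day 6 *Pou5f1* stood at 187 and 159.7 CPM in *siNcor1* against 700.1 and 501 CPM. The *siOct4*-labelled libraries were thus not lower in *Pou5f1* at day 3 (log2 fold change −0.08, adjusted p = 0.941) and were higher at day 6 (log2 fold change 1.78, adjusted p = 0.00011), and the name used here is that of the label. The paper describes this knockdown as transient, with the targeted mRNA silenced early and soon restored by strong expression from the cassette. No earlier libraries were analysed here, so that early silencing was not tested. The other cassette genes were also higher in the *siOct4*-labelled libraries at day 6, with *Klf4* at 1684 and 1119 CPM against 441 and 421 CPM (log2 fold change 1.67, adjusted p = 0.00026). *Sox2* was at 776 and 492 CPM against 217 and 182 CPM (log2 fold change 1.63, adjusted p = 0.00033). *Myc* was at 1274 and 919.7 CPM against 369.6 and 351 CPM (log2 fold change 1.59, adjusted p = 0.0002). *Klf4*, *Sox2* and *Myc* overlapped between the knockdowns at day 3. The part of the cassette level in the differences of the Wnt genes at day 6 was not tested. Reads from the cassette cannot be told apart from those of the endogenous genes. The libraries held between 7735742 and 16445192 reads on genes, which makes 3 reads worth between 0.174 and 0.380 CPM, and the long non-coding RNA *Gm26917* took between 15.5% and 29.1% of them.

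At the level of the RNA, every Frizzled, co-receptor, Axin and TCF/LEF gene and 10 of the 14 ligands passed the filter on low values. Levels between genes were compared as CPM per kilobase of exon. In the *siNcor1* libraries at day 3 the mean level was highest for *Sfrp1* (82.1 CPM per kilobase), which encodes a secreted ligand-binding inhibitor, followed by *Fzd7* (23.3), *Fzd1* (19.5), *Axin1* (18.7) and *Sfrp2* (16.2). Among ligands on the same scale, *Wnt4* (7.05) and *Wnt5a* (6.8) led in that group, and *Wnt16* (2.10) and *Wnt2b* (1.77) came next. At day 6 in the *siOct4*-labelled libraries, *Sfrp1* was at 21.9, *Axin1* at 16.6 and *Fzd7* at 15.5 CPM per kilobase, and the leading ligand was *Wnt5a* at 3.70. The map of deviations of each library from the gene's mean shows the pattern over all 41 tested members.

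**Figure D1:**
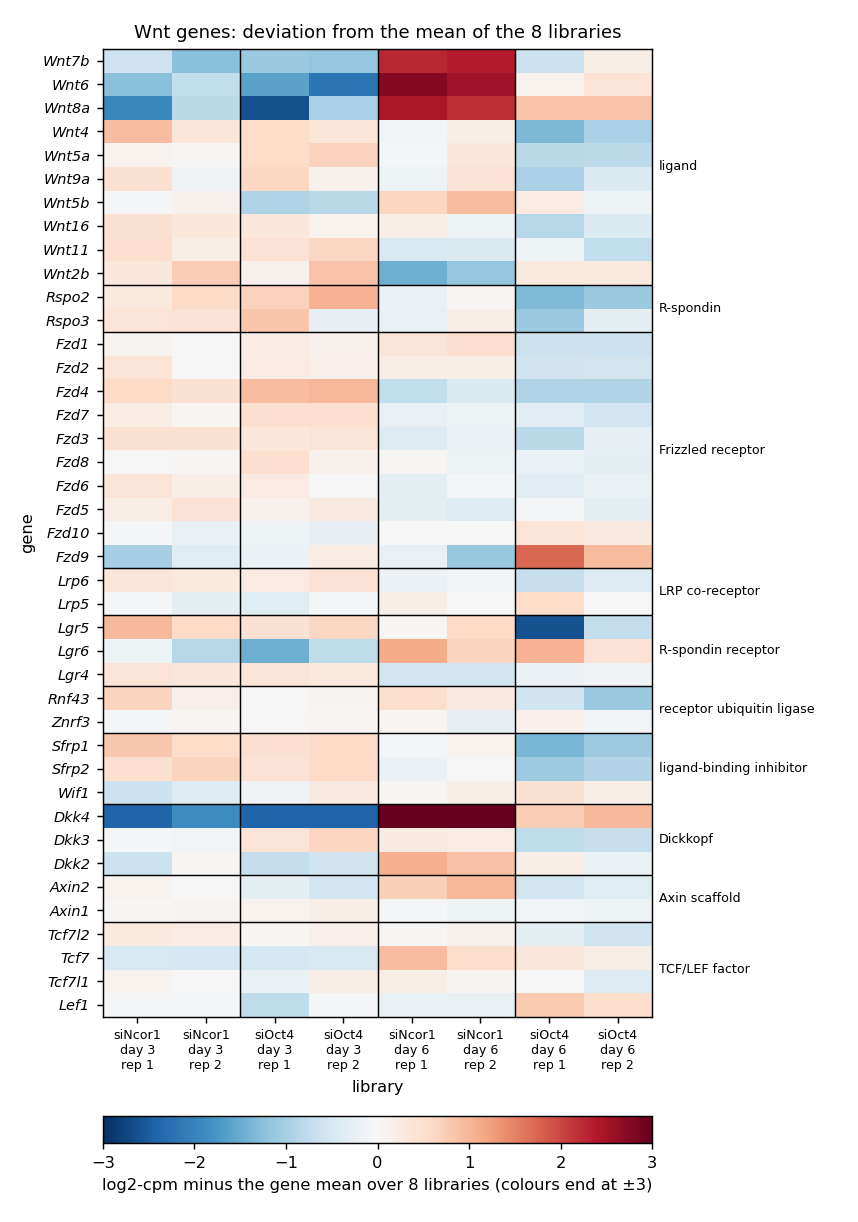
Each row is a tested Wnt gene, each column a library, and colour gives the library's log2-cpm value minus that gene's mean over the 8 libraries, with the scale ending at ±3; black lines separate groups and roles. *Dkk4*, *Wnt7b*, *Wnt6* and *Wnt8a* are darkest red in both *siNcor1* libraries of day 6, while *Sfrp1*, *Wnt4* and *Rspo2* are bluest in both day 6 *siOct4*-labelled libraries.

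At day 6 the Wnt genes were mostly lower in the *siOct4*-labelled libraries than in the *siNcor1* libraries. In the test, 19 of the 41 tested members were lower and 4 were higher (adjusted p under 0.05, limma with Benjamini-Hochberg adjustment over 13866 genes). Over all tested genes, 18.6% were lower and 12.1% were higher, against 46.3% and 9.76% of the tested members. The median log2 fold change was −0.53 over the tested members and −0.03 over all tested genes. The members called came from every role: 6 of 10 tested ligands, *Rspo2*, 2 of 10 Frizzled genes, *Lrp6*, *Lgr5*, *Rnf43*, 2 of 3 SFRP and WIF1 genes, all 3 tested Dickkopf genes, *Axin2* and *Tcf7l2* were lower, and *Wnt2b*, *Fzd9*, *Lgr4* and *Lef1* were higher.

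For 7 of the tested members (*Dkk4*, *Lgr5*, *Rspo3*, *Wif1*, *Wnt6*, *Wnt7b*, *Wnt8a*) at least 1 group mean was under 1 CPM, so that these passed the filter through the groups where they were higher. Among the other 34, 15 were lower and 4 higher at day 6, and of the 12683 genes without such a group 19.1% were lower and 12.6% higher. Without replicate 2 of *siNcor1* day 6, 15 members were called in place of 23. These are bulk libraries, in which fewer cells that express a gene and less RNA of it per cell cannot be told apart.

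At day 3 no member passed the threshold, and 1.07% of all tested genes did. Of the tested members, 5 had an unadjusted p under 0.05, against 10.5% of all genes, and the test on recovered reads (voom) also called none. The nearest to the threshold were *Dkk3* (log2 fold change 0.61, SE 0.14, adjusted p = 0.0685) and *Wnt5a* (log2 fold change 0.55, SE 0.14, adjusted p = 0.0943), both with higher values in the *siOct4*-labelled libraries, and *Wnt5b* (log2 fold change −0.91, SE 0.26, adjusted p = 0.145) and *Axin2* (log2 fold change −0.50, SE 0.16, adjusted p = 0.195), both with lower values. The median log2 fold change was −0.06 over the tested members and −0.02 over all genes. The difference of the day 6 and the day 3 comparison was tested as an interaction. Among the 34 members with every group mean at 1 CPM or more, 2 passed with a more positive and 10 with a more negative difference at day 6. Of all such genes, 7.73% and 13.5% did. Over all tested members the counts were 2 and 12 (4.88% and 29.3%), against 7.77% and 12.9% of all genes. The 12 include *Dkk4* and *Wnt7b*, which passed the filter through day 6. Leaving out replicate 2 of *siNcor1* day 6 brought these 14 calls to 6, and leaving out replicate 2 of *siNcor1* day 3 to 7.

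**Figure D2:**
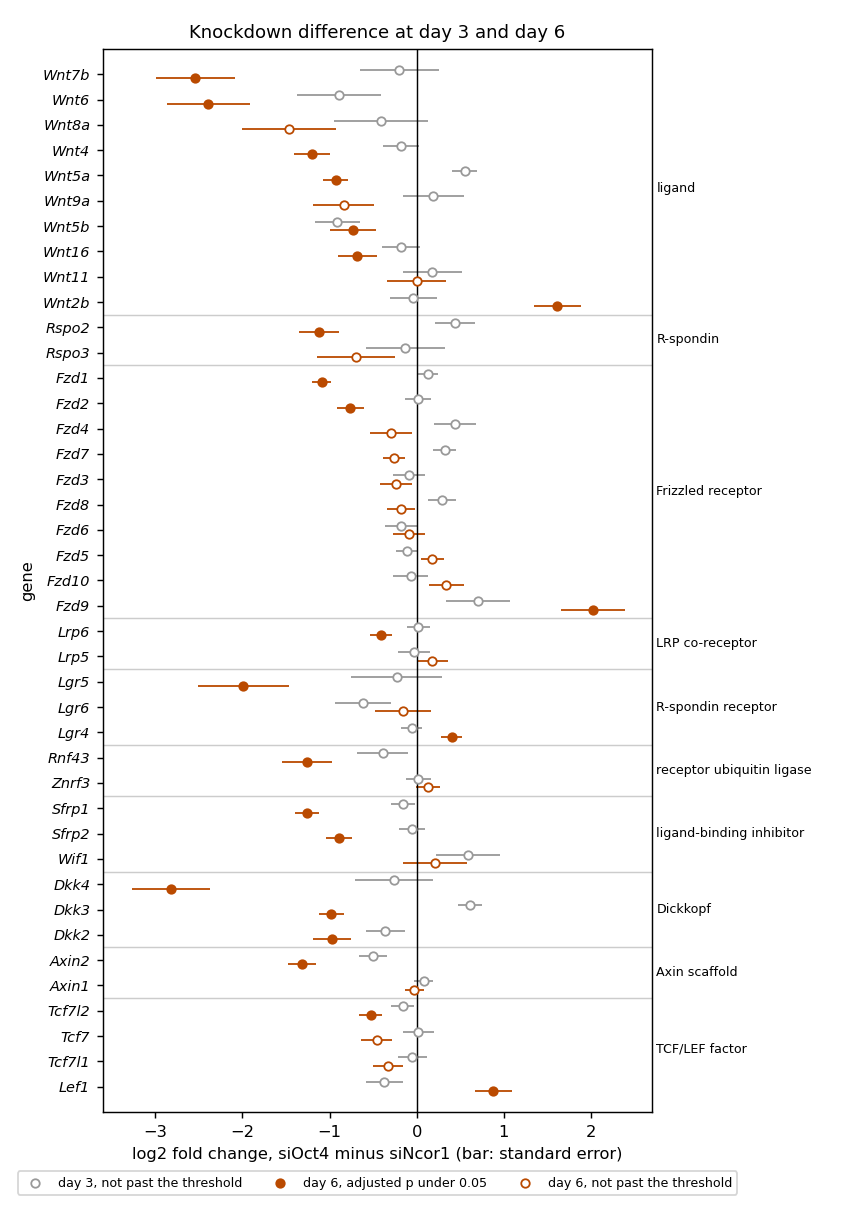
For each tested Wnt gene, the horizontal axis gives the log2 fold change (*siOct4*-labelled minus *siNcor1* libraries) at day 3 in grey and at day 6 in orange; bars are standard errors, filled points passed the test, and genes are grouped by role. The grey points lie between −0.91 and 0.70 with none filled, and the filled orange points reach from −2.82 for *Dkk4* to 2.02 for *Fzd9*.

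The ligands split into those that appeared by day 6 and those that were present from day 3. *Wnt7b* (chr15:85535437-85582473), a ligand known from lung and kidney development, was measured at 0.433 and 0.232 CPM in the *siNcor1* libraries and 0.271 and 0.253 CPM in the *siOct4*-labelled libraries at day 3. By day 6 *Wnt7b* stood at 4.05 and 4.29 CPM in *siNcor1* against 0.423 and 0.849 CPM. Both *siNcor1* libraries of day 6 were high and did not overlap with any other library. The difference at day 6 was 5.8-fold (log2 fold change −2.54, SE 0.45, adjusted p = 0.0021), and the rise from day 3 to day 6 passed in *siNcor1* (log2 fold change 3.23, SE 0.45, adjusted p = 0.00034) and not in the *siOct4*-labelled libraries (log2 fold change 0.90, adjusted p = 0.111). *Wnt6* (chr1:74771892-74785322), a ligand of epithelia and somites, was at 0.124 and 0.232 CPM in the *siNcor1* libraries and 0.0677 and 0.0 CPM in the *siOct4*-labelled libraries at day 3. By day 6 *Wnt6* stood at 4.05 and 3.45 CPM in *siNcor1* against 0.528 and 0.679 CPM. Again both *siNcor1* libraries of day 6 stood above all others, by 5.26-fold over the *siOct4*-labelled ones (log2 fold change −2.39, SE 0.48, adjusted p = 0.00406). Over the *siOct4*-labelled libraries, its reads went from 1 at day 3 to 13 at day 6, a ratio of 13.9 (exact 95% counting interval 2.08 to 589), and the call of that rise of *Wnt6* was lost with quantile normalization (log2 fold change 1.07, adjusted p = 0.0736). The same shape was seen in *Wnt8a*, a ligand of the early primitive streak, at 0.186 and 0.58 CPM in the *siNcor1* libraries and 0.0677 and 0.506 CPM in the *siOct4*-labelled libraries at day 3. By day 6 *Wnt8a* stood at 6.53 and 5.72 CPM in *siNcor1* against 2.11 and 2.12 CPM. It rose from day 3 to day 6 in *siNcor1* (log2 fold change 3.70, SE 0.54, adjusted p = 0.00047) and in the *siOct4*-labelled libraries (log2 fold change 2.64, SE 0.54, adjusted p = 0.00155), and the knockdowns at day 6 did not overlap but missed the threshold (log2 fold change −1.47, adjusted p = 0.0572).

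*Wnt5a* (chr14:28504750-28527448), the ligand best known for signalling without β-catenin, was the most abundant ligand by CPM, at 54.3 and 52.1 CPM in the *siNcor1* libraries and 74.3 and 82 CPM in the *siOct4*-labelled libraries at day 3. By day 6 *Wnt5a* stood at 48.7 and 62.8 CPM in *siNcor1* against 28.5 and 29.3 CPM. Its *siOct4*-labelled libraries were the highest at day 3 and the lowest at day 6. At day 6 the difference was 1.91-fold (log2 fold change −0.93, SE 0.14, adjusted p = 0.0009), the fall from day 3 in the *siOct4*-labelled libraries was 2.69-fold (log2 fold change −1.43, adjusted p = 9.2e-06), and *siNcor1* overlapped between the days (log2 fold change 0.06, adjusted p = 0.786). *Wnt4* (chr4:137277489-137299726), needed for kidney and gonad development, was at 35.4 and 23.7 CPM in the *siNcor1* libraries and 27.4 and 24 CPM in the *siOct4*-labelled libraries at day 3. By day 6 *Wnt4* stood at 17.3 and 20.9 CPM in *siNcor1* against 7.19 and 9.42 CPM. Both day 6 *siOct4*-labelled libraries were the lowest, 2.29-fold under *siNcor1* (log2 fold change −1.20, SE 0.21, adjusted p = 0.00198). It fell by day 6 in the *siOct4*-labelled libraries (log2 fold change −1.62, adjusted p = 6.5e-05) and in *siNcor1* (log2 fold change −0.60, adjusted p = 0.0425). For the latter, leaving out in turn replicate 1 of *siNcor1* day 3, either *siOct4*-labelled day 3 library or either *siNcor1* day 6 library gave a log2 fold change between −0.74 and −0.31 with an adjusted p between 0.0573 and 0.35. That fall of *Wnt4* was also lost with totals that leave out *Gm26917* (adjusted p = 0.0595) and without the trend of the variance (adjusted p = 0.0912).

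*Wnt2b* (chr3:104945272-104961921), a ligand of mesenchyme, ran the other way, at 6.31 and 8.58 CPM in the *siNcor1* libraries and 5.55 and 9.24 CPM in the *siOct4*-labelled libraries at day 3. By day 6 *Wnt2b* stood at 1.73 and 2.19 CPM in *siNcor1* against 6.23 and 6.2 CPM. Both *siNcor1* libraries of day 6 were below all 6 other libraries, so that the *siOct4*-labelled libraries were 3.05-fold higher at day 6 (log2 fold change 1.61, SE 0.27, adjusted p = 0.00178). It fell between the days in *siNcor1* (log2 fold change −1.85, adjusted p = 0.00051) and overlapped between the days in the *siOct4*-labelled libraries (log2 fold change −0.20, adjusted p = 0.56). *Wnt9a* was at 3.09 and 2.03 CPM in the *siNcor1* libraries and 3.45 and 2.4 CPM in the *siOct4*-labelled libraries at day 3. By day 6 *Wnt9a* stood at 1.98 and 3.03 CPM in *siNcor1* against 1.06 and 1.61 CPM. It fell by day 6 in the *siOct4*-labelled libraries (log2 fold change −1.06, adjusted p = 0.0235). For that fall, leaving out in turn replicate 1 of *siOct4*-labelled day 3 or replicate 1 of *siOct4*-labelled day 6 gave a log2 fold change between −0.81 and −0.79 with an adjusted p between 0.117 and 0.151. Of the remaining tested ligands, *Wnt16* (log2 fold change −0.68, adjusted p = 0.0362) and *Wnt5b* (log2 fold change −0.73, adjusted p = 0.0499) were lower at day 6 and *Wnt11* was not (log2 fold change 0.00). For *Wnt16*, leaving out in turn either *siNcor1* day 3 library, either *siNcor1* day 6 library or replicate 1 of *siOct4*-labelled day 6 gave a log2 fold change between −0.85 and −0.46 with an adjusted p between 0.0585 and 0.215, and voom and a fit of only the groups compared gave an adjusted p of 0.0565 and 0.0925. The call of *Wnt5b* lay at the threshold: leaving out in turn either *siNcor1* day 3 library, either *siOct4*-labelled day 3 library, either *siNcor1* day 6 library or replicate 2 of *siOct4*-labelled day 6 gave a log2 fold change between −0.86 and −0.54 with an adjusted p between 0.0588 and 0.285. The replicate block gave *Wnt5b* an adjusted p of 0.0507, and median centring, quantile normalization, totals without *Gm26917*, no filter, a pseudocount of 0.1 and only the groups compared gave between 0.0509 and 0.0824, with log2 fold changes between −0.73 and −0.67. *Wnt5b* also rose between the days in *siNcor1* (log2 fold change 0.74, adjusted p = 0.0414) and in the *siOct4*-labelled libraries (log2 fold change 0.92, adjusted p = 0.00964). There leaving out in turn either *siNcor1* day 3 library or either *siNcor1* day 6 library gave a log2 fold change between 0.61 and 0.88 with an adjusted p between 0.0923 and 0.226 for the former, and without replicate 1 of *siOct4*-labelled day 6 the log2 fold change was 0.73 with an adjusted p of 0.0582 for the latter. For the rise of *Wnt5b* in *siNcor1*, quantile normalization gave a log2 fold change of 0.53 (adjusted p = 0.144) and no filter an adjusted p of 0.06.

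The other 4 ligands in the table, *Wnt2*, *Wnt7a*, *Wnt10a* and *Wnt10b*, stayed under the filter, with means between 0.137 and 0.658 CPM over the 8 libraries. *Wnt2* had 16 and 20 reads in *siNcor1* and 15 and 6 reads in the *siOct4*-labelled libraries at day 3, then 7 and 6 against 0 and 3 reads at day 6. *Wnt10b* had between 5 and 12 reads in each library at day 3 and between 1 and 3 at day 6. *Wnt10a* and *Wnt7a* had at most 7 and at most 3 reads in any library. At this depth their differences between groups rest on few reads.

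Of the R-spondins, which amplify Wnt signals at the receptor, *Rspo2* (chr15:43020794-43170826) was at 6.74 and 8.12 CPM in the *siNcor1* libraries and 8.87 and 11.4 CPM in the *siOct4*-labelled libraries at day 3. By day 6 *Rspo2* stood at 4.71 and 5.55 CPM in *siNcor1* against 2.11 and 2.46 CPM. Its lowest libraries were both of the *siOct4*-labelled ones at day 6, 2.17-fold under *siNcor1* (log2 fold change −1.12, SE 0.23, adjusted p = 0.0041, and without replicate 2 of *siNcor1* day 6 the log2 fold change was −1.0 with an adjusted p of 0.0525). Its fall from day 3 passed in the *siOct4*-labelled libraries (log2 fold change −2.08, adjusted p = 2.1e-05) and not in *siNcor1* (log2 fold change −0.52, adjusted p = 0.0939). *Rspo3* was near the filter, between 0.423 and 2.03 CPM, and passed in no comparison. *Rspo1* and *Rspo4* were under it: *Rspo1* had 15 and 15 reads in *siNcor1* and 17 and 2 reads in the *siOct4*-labelled libraries at day 3, and between 2 and 8 at day 6, and *Rspo4* had between 0 and 2 reads in each day 3 library and between 4 and 8 in each day 6 library.

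All 10 Frizzled receptor genes were detected, and *Fzd7*, *Fzd1*, *Fzd5* and *Fzd2* were the most abundant by CPM. *Fzd1* (chr5:4753839-4758035) was at 84 and 79.9 CPM in the *siNcor1* libraries and 92.3 and 86.6 CPM in the *siOct4*-labelled libraries at day 3. By day 6 *Fzd1* stood at 103 and 114 CPM in *siNcor1* against 50.8 and 51.1 CPM. The day 6 *siOct4*-labelled libraries were the lowest of all, 2.12-fold under *siNcor1* (log2 fold change −1.09, SE 0.11, adjusted p = 0.00026). It fell from day 3 in the *siOct4*-labelled libraries (log2 fold change −0.81, adjusted p = 0.00013) and rose in *siNcor1* (log2 fold change 0.40, adjusted p = 0.0178). For that rise, leaving out in turn either *siNcor1* day 3 library or either *siNcor1* day 6 library gave a log2 fold change between 0.33 and 0.47 with an adjusted p between 0.0538 and 0.151. *Fzd2* also was lower in the *siOct4*-labelled libraries at day 6 (log2 fold change −0.76, adjusted p = 0.00374), at 21.5 and 21.8 CPM against 37.1 and 36.4 CPM. *Fzd9* (chr5:135248938-135251230) was the Frizzled gene with the opposite difference, at 1.61 and 2.55 CPM in the *siNcor1* libraries and 2.91 and 3.92 CPM in the *siOct4*-labelled libraries at day 3. By day 6 *Fzd9* stood at 2.81 and 1.43 CPM in *siNcor1* against 11.2 and 6.54 CPM. Its *siOct4*-labelled libraries at day 6 were the highest, 4.05-fold above *siNcor1* (log2 fold change 2.02, SE 0.37, adjusted p = 0.00261), although its replicates lay further apart than those of *Fzd1*.

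*Fzd4*, the receptor that also serves the ligand Norrin, was at 4.95 and 4.52 CPM at day 3 and 1.9 and 2.35 CPM at day 6 in *siNcor1*. The *siOct4*-labelled values of *Fzd4* were 6.37 and 6.58 CPM at day 3 and 1.69 and 1.7 CPM at day 6. Every day 6 library was below every day 3 library, and the falls were 2.16-fold in *siNcor1* (log2 fold change −1.11, SE 0.24, adjusted p = 0.00472) and 3.61-fold in the *siOct4*-labelled libraries (log2 fold change −1.85, SE 0.24, adjusted p = 7.7e-05), with no call between the knockdowns at day 6 (log2 fold change −0.30, adjusted p = 0.378). *Fzd3* and *Fzd5* also fell by day 6 in both knockdowns, with log2 fold changes of −0.73 and −0.65 in *siNcor1* and of −0.88 and −0.36 in the *siOct4*-labelled libraries. The fall of *Fzd5* in the *siOct4*-labelled libraries lay close to the threshold (adjusted p = 0.0399). It lost its call under each other scaling of the libraries, with a log2 fold change of −0.29 with median centring (adjusted p = 0.107), −0.22 with totals that leave out *Gm26917* (adjusted p = 0.205) and −0.14 with quantile normalization (adjusted p = 0.433). It also lost it without the trend of the variance (adjusted p = 0.0797) and in a fit of only the groups compared (adjusted p = 0.0815). *Fzd7* and *Fzd8* fell in the *siOct4*-labelled libraries (log2 fold change −0.92 and −0.56), *Fzd10* rose there (log2 fold change 0.55, adjusted p = 0.039), and *Fzd6* passed in no comparison. Of these smaller changes, some depended on 1 library. For *Fzd3* in *siNcor1*, leaving out in turn either *siNcor1* day 3 library or replicate 1 of *siNcor1* day 6 gave a log2 fold change between −0.73 and −0.63 with an adjusted p between 0.0513 and 0.0793. For *Fzd5*, without replicate 2 of *siNcor1* day 3 the log2 fold change was −0.53 with an adjusted p of 0.0509 in *siNcor1*, and leaving out in turn either *siOct4*-labelled day 3 library, either *siNcor1* day 6 library or replicate 2 of *siOct4*-labelled day 6 gave a log2 fold change between −0.44 and −0.26 with an adjusted p between 0.0605 and 0.22 in the *siOct4*-labelled libraries. For *Fzd8*, without replicate 1 of *siOct4*-labelled day 3 the log2 fold change was −0.38 with an adjusted p of 0.142, and for *Fzd10*, leaving out in turn either *siNcor1* day 3 library, either *siOct4*-labelled day 3 library, either *siNcor1* day 6 library or replicate 1 of *siOct4*-labelled day 6 gave a log2 fold change between 0.48 and 0.59 with an adjusted p between 0.0502 and 0.151. The rise of *Fzd10* was lost as well with quantile normalization (log2 fold change 0.40, adjusted p = 0.127), voom (adjusted p = 0.0551), no filter (adjusted p = 0.0554) and only the groups compared (adjusted p = 0.0865).

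The co-receptor genes differed from each other. *Lrp6* (chr6:134446476-134566965) was at 154 and 146 CPM in the *siNcor1* libraries and 143 and 162 CPM in the *siOct4*-labelled libraries at day 3. By day 6 *Lrp6* stood at 105 and 113 CPM in *siNcor1* against 74.1 and 91.6 CPM. It fell by day 6 in *siNcor1* (log2 fold change −0.46, adjusted p = 0.0184) and in the *siOct4*-labelled libraries (log2 fold change −0.88, adjusted p = 0.00019), and at day 6 it was lower in the latter (log2 fold change −0.41, SE 0.13, adjusted p = 0.0363). That difference lost its call easily: leaving out in turn either *siNcor1* day 3 library, either *siNcor1* day 6 library or replicate 1 of *siOct4*-labelled day 6 gave a log2 fold change between −0.46 and −0.25 with an adjusted p between 0.0564 and 0.217. So did its fall in *siNcor1*, for which leaving out in turn either *siNcor1* day 3 library or either *siNcor1* day 6 library gave a log2 fold change between −0.51 and −0.41 with an adjusted p between 0.0614 and 0.131. Quantile normalization brought that fall of *Lrp6* to a log2 fold change of −0.28 (adjusted p = 0.11). Without the trend of the variance the adjusted p of *Lrp6* was 0.0591 for the fall and 0.0909 for the difference at day 6, which was 0.084 with only the groups compared. *Lrp5* (chr19:3584828-3686564) was at 92.4 and 80.5 CPM in the *siNcor1* libraries and 75.3 and 94.4 CPM in the *siOct4*-labelled libraries at day 3. By day 6 *Lrp5* stood at 108 and 97.2 CPM in *siNcor1* against 140.4 and 95.6 CPM. The knockdowns overlapped at both days, and only the rise by day 6 in the *siOct4*-labelled libraries passed (log2 fold change 0.46, adjusted p = 0.0472). Replicate 1 stood apart there at 140.4 CPM, and leaving out in turn either *siNcor1* day 3 library, replicate 1 of *siOct4*-labelled day 3, either *siNcor1* day 6 library or replicate 1 of *siOct4*-labelled day 6 gave a log2 fold change between 0.18 and 0.46 with an adjusted p between 0.0615 and 0.356. It was lost too with no filter or a filter of 10 CPM (adjusted p = 0.0501 and 0.0515), with only the groups compared (adjusted p = 0.0946) and without the trend of the variance (adjusted p = 0.116), all for *Lrp5*.

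Among the receptors of R-spondins, *Lgr5* (chr10:115450311-115587780), a marker of many adult stem cells, was at 2.72 and 2.09 CPM in the *siNcor1* libraries and 1.9 and 2.15 CPM in the *siOct4*-labelled libraries at day 3. By day 6 *Lgr5* stood at 1.4 and 2.1 CPM in *siNcor1* against 0.106 and 0.764 CPM. The lowest values were those of the day 6 *siOct4*-labelled libraries, with 1 and 9 reads, and the difference there was 3.98-fold (log2 fold change −1.99, SE 0.52, adjusted p = 0.0146). It rests on the former library: leaving out in turn replicate 2 of *siNcor1* day 6 or replicate 1 of *siOct4*-labelled day 6 gave a log2 fold change between −1.72 and −1.04 with an adjusted p between 0.0665 and 0.116, and only the groups compared gave *Lgr5* an adjusted p of 0.0528. It fell from day 3 in the *siOct4*-labelled libraries (log2 fold change −2.21, adjusted p = 0.00392). *Lgr6* was at 6.74 and 4 CPM at day 3 and 16.1 and 11.9 CPM at day 6 in *siNcor1*. The *siOct4*-labelled values of *Lgr6* were 2.57 and 4.3 CPM at day 3 and 15.4 and 10.0 CPM at day 6. All day 6 libraries were above all day 3 libraries, and it rose in *siNcor1* (log2 fold change 1.39, SE 0.32, adjusted p = 0.00573) and in the *siOct4*-labelled libraries (log2 fold change 1.86, SE 0.32, adjusted p = 0.00046), while the knockdowns overlapped at both days. In *siNcor1*, leaving out in turn replicate 2 of *siNcor1* day 3 or replicate 1 of *siNcor1* day 6 gave a log2 fold change between 1.03 and 1.18 with an adjusted p between 0.0594 and 0.0832. *Lgr4*, the most abundant of the family, fell by day 6 in *siNcor1* (log2 fold change −0.93, adjusted p = 0.00022) and in the *siOct4*-labelled libraries (log2 fold change −0.47, adjusted p = 0.00643), and at day 6 was 1.32-fold higher in the latter (log2 fold change 0.40, adjusted p = 0.0251), a call for which leaving out in turn either *siNcor1* day 6 library gave a log2 fold change between 0.40 and 0.41 with an adjusted p between 0.107 and 0.136 and a fit of only the groups compared an adjusted p of 0.0802.

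The ubiquitin ligases that remove Frizzled receptors are both target genes of β-catenin, and they behaved differently here. *Rnf43* (chr11:87662722-87735539) was at 5.01 and 3.48 CPM in the *siNcor1* libraries and 3.05 and 3.29 CPM in the *siOct4*-labelled libraries at day 3. By day 6 *Rnf43* stood at 4.54 and 3.78 CPM in *siNcor1* against 2.01 and 1.36 CPM. Both day 6 *siOct4*-labelled libraries were below the other 6, 2.39-fold under *siNcor1* (log2 fold change −1.26, SE 0.29, adjusted p = 0.00751), and without replicate 1 of *siNcor1* day 6 the log2 fold change was −1.13 with an adjusted p of 0.0562. *Znrf3* (chr11:5276324-5444847) was at 41.9 and 44.5 CPM in the *siNcor1* libraries and 43.2 and 44.7 CPM in the *siOct4*-labelled libraries at day 3. By day 6 *Znrf3* stood at 44.4 and 36.2 CPM in *siNcor1* against 47.7 and 40.4 CPM. It overlapped between the groups in all 4 comparisons of groups, with log2 fold changes between −0.11 and 0.13.

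Of the ligand-binding inhibitors, *Sfrp1* (chr8:23411502-23449632) was the most abundant gene of the whole set, at 391 and 327 CPM in the *siNcor1* libraries and 312 and 330.4 CPM in the *siOct4*-labelled libraries at day 3. By day 6 *Sfrp1* stood at 215 and 241 CPM in *siNcor1* against 86.9 and 104 CPM. Every day 6 library was below every day 3 library, and the *siOct4*-labelled ones were the lowest. The fall was 1.57-fold in *siNcor1* (log2 fold change −0.65, SE 0.14, adjusted p = 0.00395) and 3.37-fold in the *siOct4*-labelled libraries (log2 fold change −1.75, SE 0.14, adjusted p = 2.3e-06), which left a 2.39-fold difference at day 6 (log2 fold change −1.26, SE 0.14, adjusted p = 0.00029). For the fall in *siNcor1*, without replicate 1 of *siNcor1* day 6 the log2 fold change was −0.57 with an adjusted p of 0.051. *Sfrp2* (chr3:83766321-83774316) took the same course at lower levels, at 32.7 and 37.2 CPM in the *siNcor1* libraries and 31.6 and 35.9 CPM in the *siOct4*-labelled libraries at day 3. By day 6 *Sfrp2* stood at 20.7 and 23.4 CPM in *siNcor1* against 11 and 12.6 CPM. It fell in *siNcor1* (log2 fold change −0.66, adjusted p = 0.00572) and in the *siOct4*-labelled libraries (log2 fold change −1.51, adjusted p = 1.1e-05), and was 1.86-fold lower in the latter at day 6 (log2 fold change −0.89, SE 0.15, adjusted p = 0.00167). Of its fall in *siNcor1*, leaving out in turn replicate 2 of *siNcor1* day 3 or replicate 1 of *siNcor1* day 6 gave a log2 fold change between −0.58 and −0.57 with an adjusted p between 0.0627 and 0.0672. *Wif1* was at 0.619 to 1.48 CPM and passed in no comparison, and *Sfrp4*, under the filter, had between 3 and 14 reads per library.

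The Dickkopf genes held the largest difference of the set. *Dkk4* (chr8:22624043-22627547), an inhibitor that is itself induced by Wnt signalling in several tissues, was at 0.0 and 0.058 CPM in the *siNcor1* libraries and 0.0 and 0.0 CPM in the *siOct4*-labelled libraries at day 3. By day 6 *Dkk4* stood at 8.01 and 10.2 CPM in *siNcor1* against 1.06 and 1.27 CPM. In day 3 libraries it had 1 read in all, in replicate 2 of *siNcor1*. At day 6 it had 97 and 121 reads in *siNcor1* and 10 and 15 in the *siOct4*-labelled libraries, a difference of 7.07-fold (log2 fold change −2.82, SE 0.45, adjusted p = 0.00124). Its reads in *siNcor1* went from 1 to 218 between the days, a ratio of 303 (exact 95% counting interval 53.9 to 12000.0), and in the *siOct4*-labelled libraries from 0 to 25, at least 8.89-fold higher when 3 reads over the group are taken as the floor of day 3. *Dkk1*, the inhibitor of LRP5 and LRP6 that was under the filter, showed the same shape, with 3 and 1 reads in *siNcor1* and 1 and 2 in the *siOct4*-labelled libraries at day 3, and 22 and 22 against 5 and 3 reads at day 6. In the fit without a filter its difference at day 6 passed (log2 fold change −1.95, SE 0.52, adjusted p = 0.0173). Of the other members under the filter, *Wnt2* passed at day 6 in that fit as well (log2 fold change −1.55, adjusted p = 0.0477). *Dkk1*, *Rspo1*, *Rspo4*, *Wnt2*, *Wnt7a* and *Wnt10b* passed between the days in at least 1 knockdown there, all on few reads.

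*Dkk2* (chr3:132085292-132180304) was at 10.5 and 17.1 CPM in the *siNcor1* libraries and 9.96 and 10.8 CPM in the *siOct4*-labelled libraries at day 3. By day 6 *Dkk2* stood at 34.4 and 30.2 CPM in *siNcor1* against 18.7 and 14.4 CPM. It rose by day 6 in *siNcor1* (log2 fold change 1.26, SE 0.22, adjusted p = 0.00138) and in the *siOct4*-labelled libraries (log2 fold change 0.66, adjusted p = 0.0246), and was 1.95-fold lower in the latter at day 6 (log2 fold change −0.97, SE 0.22, adjusted p = 0.00749). For that difference, without replicate 1 of *siNcor1* day 6 the log2 fold change was −0.87 with an adjusted p of 0.0538, and for the rise in the *siOct4*-labelled libraries, leaving out in turn either *siOct4*-labelled day 3 library or replicate 1 of *siOct4*-labelled day 6 gave a log2 fold change between 0.47 and 0.71 with an adjusted p between 0.0671 and 0.122, and no trend of the variance gave *Dkk2* one of 0.0585. *Dkk3* (chr7:112116017-112159057), a divergent member of the family that is common in fibroblasts, was at 22 and 21.8 CPM in the *siNcor1* libraries and 30.7 and 36.3 CPM in the *siOct4*-labelled libraries at day 3. By day 6 *Dkk3* stood at 27.7 and 27.5 CPM in *siNcor1* against 13.5 and 14.3 CPM. The *siOct4*-labelled libraries were the highest at day 3 and the lowest at day 6. They fell 2.39-fold between the days (log2 fold change −1.26, SE 0.14, adjusted p = 2.4e-05), while the change in *siNcor1* missed the threshold (log2 fold change 0.33, adjusted p = 0.0871), and at day 6 they were 1.98-fold under *siNcor1* (log2 fold change −0.98, SE 0.14, adjusted p = 0.00073).

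**Figure D3:**
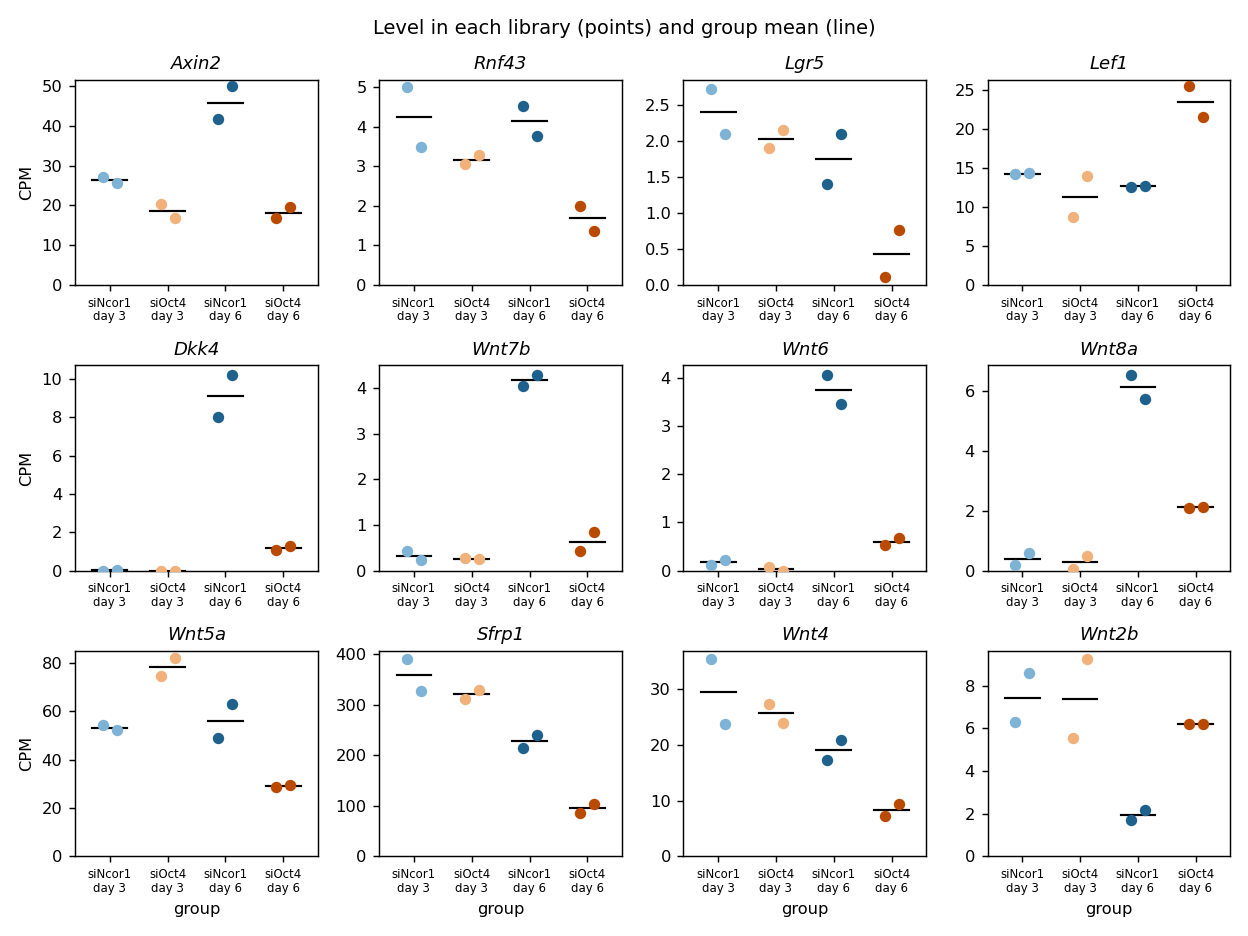
CPM (vertical axis, linear, from 0) of 12 Wnt genes in each library, with 2 points per group (blue for *siNcor1*, orange for the *siOct4*-labelled libraries, pale for day 3 and dark for day 6) and a line at the group mean. *Axin2* reaches 41.6 and 49.9 CPM in *siNcor1* at day 6, *Wnt5a* and *Sfrp1* are lowest in both day 6 *siOct4*-labelled libraries, and *Wnt2b* is lowest in *siNcor1* at day 6.

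*Axin2* (chr11:108920349-108950783), the scaffold that β-catenin induces and that is the usual readout of the pathway, was at 27.1 and 25.6 CPM in the *siNcor1* libraries and 20.4 and 16.8 CPM in the *siOct4*-labelled libraries at day 3. By day 6 *Axin2* stood at 41.6 and 49.9 CPM in *siNcor1* against 16.9 and 19.5 CPM. The *siNcor1* libraries of day 6 were above all others and the remaining libraries lay between 16.8 and 27.1 CPM. The rise in *siNcor1* was 1.73-fold (log2 fold change 0.79, SE 0.16, adjusted p = 0.00272), and the *siOct4*-labelled libraries overlapped between the days (log2 fold change −0.03, adjusted p = 0.892). The latter were already under both *siNcor1* libraries at day 3, without a call (log2 fold change −0.5, adjusted p = 0.195). At day 6 the difference was 2.5-fold (log2 fold change −1.32, SE 0.16, adjusted p = 0.00038). *Axin1*, the constitutive scaffold, stayed between 62.0 and 77.5 CPM in all 8 libraries and passed in no comparison. The antisense gene *Gm11670*, which shares 209 exonic bases with *Axin2*, had at most 7 reads in any library. The strand used in counting is not given in the sources used here.

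Among the nuclear factors, *Lef1* (chr3:131110471-131224356), of which a window before an internal start is printed above, was highest in the *siOct4*-labelled libraries at day 6. It stood at 14.2 and 14.4 CPM in the *siNcor1* libraries and 8.67 and 14 CPM in the *siOct4*-labelled libraries at day 3. By day 6 *Lef1* stood at 12.6 and 12.7 CPM in *siNcor1* against 25.5 and 21.5 CPM. Both day 6 *siOct4*-labelled libraries were above the other 6. They were 1.84-fold above *siNcor1* (log2 fold change 0.88, SE 0.21, adjusted p = 0.00931) and 2.1-fold above their own day 3 (log2 fold change 1.07, SE 0.21, adjusted p = 0.00114). For the difference between the knockdowns, without replicate 2 of *siNcor1* day 6 the log2 fold change was 0.88 with an adjusted p of 0.0626. The antisense gene *Gm43352* shares 1208 exonic bases with it and had at most 6 reads. *Tcf7* (chr11:52252371-52283014), which encodes TCF1, was at 8.41 and 8.12 CPM in the *siNcor1* libraries and 8.13 and 8.61 CPM in the *siOct4*-labelled libraries at day 3. By day 6 *Tcf7* stood at 22.6 and 17.1 CPM in *siNcor1* against 15.1 and 13.4 CPM. All day 6 libraries were above all day 3 libraries, with rises of 2.36-fold in *siNcor1* (log2 fold change 1.24, SE 0.18, adjusted p = 0.00046) and 1.69-fold in the *siOct4*-labelled libraries (log2 fold change 0.76, SE 0.18, adjusted p = 0.00398), and the difference at day 6 missed the threshold (log2 fold change −0.46, adjusted p = 0.0697).

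*Tcf7l1* (chr6:72626378-72789254), which encodes the repressor TCF3 that restrains the pluripotency network, was at 33 and 30.9 CPM in the *siNcor1* libraries and 26.9 and 35.3 CPM in the *siOct4*-labelled libraries at day 3. By day 6 *Tcf7l1* stood at 35.5 and 32.9 CPM in *siNcor1* against 30.8 and 23.9 CPM. It passed in no comparison, and its day 6 groups did not overlap (log2 fold change −0.33, adjusted p = 0.151). *Tcf7l2* was at 36.5 and 29.4 CPM in the day 6 *siOct4*-labelled libraries and at 45.8 and 48.6 CPM in *siNcor1*, a 1.44-fold difference (log2 fold change −0.53, SE 0.13, adjusted p = 0.0129), and without replicate 2 of *siNcor1* day 6 the log2 fold change was −0.48 with an adjusted p of 0.108. Of the known target genes of β-catenin among the members, *Axin2*, *Lgr5* and *Rnf43* were thus lower in the *siOct4*-labelled libraries at day 6, *Lef1* was higher, and *Tcf7* and *Znrf3* were not called.

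Between day 3 and day 6, 10 of the tested members rose and 9 fell in *siNcor1* (24.4% and 22%), against 13.8% and 20.9% of all tested genes. In the *siOct4*-labelled libraries, 11 rose and 21 fell (26.8% and 51.2%), against 22.2% and 30.5%. The medians were −0.08 in *siNcor1* and −0.47 in the *siOct4*-labelled libraries over the tested members, and −0.07 and −0.08 over all genes. Both comparisons share their libraries with those between knockdowns, so that their values are given side by side only. *Wnt6*, *Wnt8a*, *Wnt5b*, *Dkk4*, *Dkk2*, *Lgr6* and *Tcf7* rose in both, and *Wnt4*, *Fzd3*, *Fzd4*, *Fzd5*, *Lrp6*, *Lgr4*, *Sfrp1* and *Sfrp2* fell in both. *Axin1*, *Fzd6*, *Rspo3*, *Wif1*, *Znrf3* and *Tcf7l1* passed in none of the 5 comparisons. Of the 10 rises in *siNcor1*, 4 (*Dkk4*, *Wnt6*, *Wnt7b*, *Wnt8a*) were of members that passed the filter through day 6. Among the other 34 members with every group mean at 1 CPM or more, 6 rose and 9 fell in *siNcor1* and 8 rose and 20 fell in the *siOct4*-labelled libraries. Of all such genes, 12.7% rose and 22.3% fell in the former, and 20.7% and 32% in the latter. Without replicate 1 of *siNcor1* day 6 there were 11 calls in *siNcor1* and without replicate 2 of *siNcor1* day 3 there were 12, in place of 19.

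**Figure D4:**
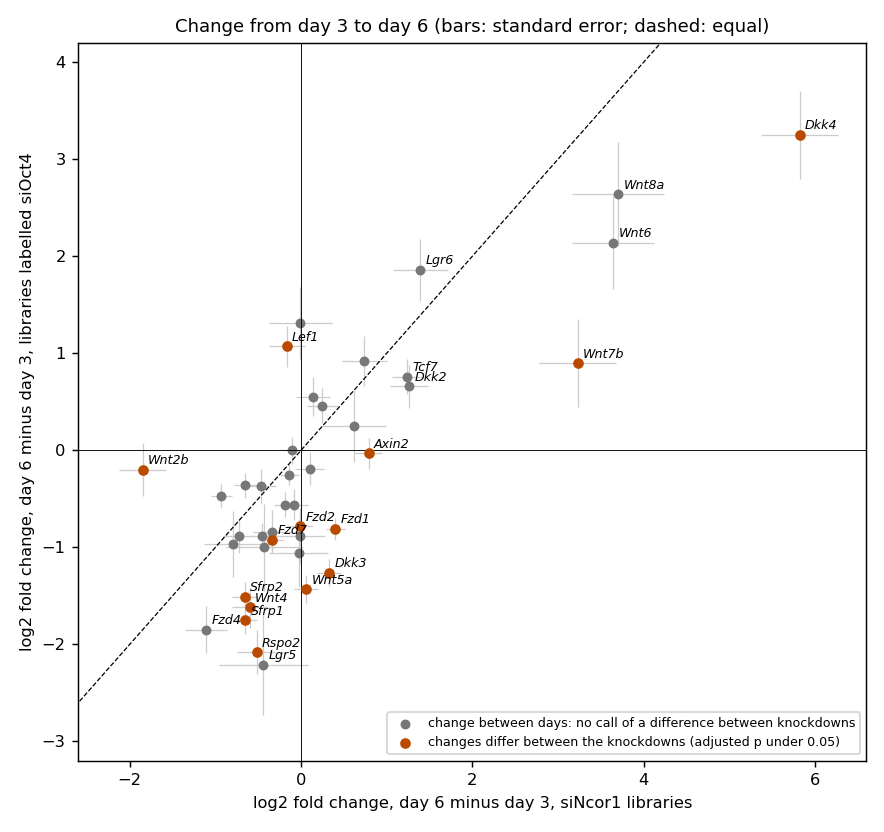
Each point is a tested Wnt gene, placed by its log2 fold change from day 3 to day 6 in the *siNcor1* libraries (horizontal) and in the *siOct4*-labelled libraries (vertical); bars are standard errors, the dashed line marks equal change, and orange marks the 14 genes whose changes differed in the interaction test. Of the orange points 12 lie under the line, from *Dkk4* (5.82 and 3.25, fitted values) to *Rspo2* (−0.52 and −2.08), and *Lef1* and *Wnt2b* lie above it.

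The rest of the pathway was examined through 6 lists, which hold 91 genes in all, of which 82 passed the filter. At day 6, 38 of these were lower and 6 higher in the *siOct4*-labelled libraries, against 18.6% and 12.1% of all tested genes. Among the 77 with every group mean at 1 CPM or more, 36 were lower and 6 higher, against 19.1% and 12.6% of all such genes. At day 3, 2 of the 82 were lower and none higher, and 1.07% of all tested genes were called in either direction. Of 15 tested target genes of β-catenin outside the members, 9 were lower and none higher, with a median log2 fold change of −0.82. The most negative differences were those of *Cdx1*, a caudal-type factor of the primitive streak (log2 fold change −2.03, SE 0.53, adjusted p = 0.0145), and *Nkd1*, an inhibitor of Dishevelled (log2 fold change −1.26, adjusted p = 0.00694). *Cdx1* had no reads in any day 3 library, and at day 6 it had 37 and 46 reads in *siNcor1* and 10 and 6 in the *siOct4*-labelled libraries, so that it passed the filter through the day 6 *siNcor1* libraries. Its difference moved to a log2 fold change of −1.33 with an adjusted p of 0.13 with totals that leave out *Gm26917*. Of the 15, 8 rose and 2 fell from day 3 to day 6 in *siNcor1* and 5 rose and 5 fell in the *siOct4*-labelled libraries, against 13.8% and 20.9%, and 22.2% and 30.5%, of all tested genes. Without *Cdx1* and *Sp5*, the genes of this list with a group mean under 1 CPM, 8 of 13 were lower at day 6, and 6 rose and 2 fell in *siNcor1* against 3 and 5 in the *siOct4*-labelled libraries.

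Of 27 cytoplasmic transducers and members of the destruction complex, 9 were lower and 2 higher at day 6. *Nkd1*, which is in this list too, and *Daam2*, a formin (log2 fold change −1.06, adjusted p = 0.00089), had the most negative and *Caprin2* (log2 fold change 0.77, adjusted p = 0.0126) and *Dvl1*, a Dishevelled (log2 fold change 0.41, adjusted p = 0.0226), the most positive differences. *Ctnnb1*, the gene of β-catenin, stood at 459 and 458 CPM in the *siNcor1* libraries and 469 and 427 CPM in the *siOct4*-labelled libraries at day 3. By day 6 *Ctnnb1* stood at 602 and 615 CPM in *siNcor1* against 351 and 429 CPM. Its day 6 *siOct4*-labelled libraries were 1.57-fold lower (log2 fold change −0.65, SE 0.13, adjusted p = 0.00449). Of the kinase genes that Chiron inhibits at the protein level, *Gsk3b* was lower (log2 fold change −0.51, adjusted p = 0.00643) and *Gsk3a* was not called (log2 fold change −0.12, adjusted p = 0.448).

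Of 16 other membrane receptors and planar polarity genes, 10 were lower and 2 higher, with *Ror1*, a receptor for WNT5A (log2 fold change −1.28, adjusted p = 0.0056), and *Adgra2*, a receptor subunit for WNT7A and WNT7B (log2 fold change −1.15, adjusted p = 0.0002), at the low end and *Celsr1* (log2 fold change 1.47, adjusted p = 0.00047) and *Celsr2* (log2 fold change 0.71, adjusted p = 0.034), both cadherins of planar polarity, at the high end. Of 9 other inhibitors, 5 were lower and 1 higher, with *Frzb*, which encodes SFRP3 (log2 fold change −1.53, adjusted p = 0.00322), *Draxin* (log2 fold change −0.85, adjusted p = 0.00318) and, as the higher gene, *Shisa3* (log2 fold change 1.16, adjusted p = 0.00038). At day 3 the order of *Shisa3* was the reverse, at 53.5 and 59.9 CPM in *siNcor1* against 26.8 and 26.8 CPM in the *siOct4*-labelled libraries. In the secretion list 4 of 6 were lower and 1 higher: *Notum*, which removes the lipid from Wnt proteins (log2 fold change −1.18, adjusted p = 0.00091), and *Porcn*, which adds it (log2 fold change −1.18, adjusted p = 0.00542), were the lowest and *Tmed5* was higher (log2 fold change 0.39, adjusted p = 0.0451). Of 13 nuclear cofactors, 4 were lower and none higher, led by *Pygo1* (log2 fold change −1.30, adjusted p = 0.00329) and *Bcl9l* (log2 fold change −1.07, adjusted p = 0.001). Leaving out 1 library ended the call of *Cdx1*, *Nkd1*, *Ctnnb1*, *Gsk3b*, *Caprin2*, *Dvl1*, *Ror1*, *Celsr2*, *Porcn* and *Tmed5* in at least 1 case, with adjusted p of up to 0.143, 0.0549, 0.0511, 0.0578, 0.0762, 0.116, 0.0686, 0.248, 0.0576 and 0.266. Those of *Celsr2*, *Dvl1* and *Tmed5* were lost too without the trend of the variance and with only the groups compared, and that of *Tmed5* with no filter. *Ror1* also passed the filter with a group mean under 1 CPM. Over all tested genes 18.6% were lower, as given above, and *Nkd1*, *Notum*, *Apcdd1* and *Kremen1* each stand in more than 1 list.

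Of the markers of cell types that such a culture can hold, some of fibroblasts, pluripotent cells and keratinocytes were called between the knockdowns. Over all tested genes, 18.6% were lower in the *siOct4*-labelled libraries at day 6, and 1.07% were called in either direction at day 3. The summed level of 10 fibroblast markers was 4869 and 5283 CPM in *siNcor1* and 2673 and 2896 CPM in the *siOct4*-labelled libraries at day 6, and 7 of the 10 were lower in the latter. At day 3 the order of the sums was the other way round, at 6913 and 7132 CPM against 9475 and 11200.4 CPM, with no marker called. The sum is weighted to abundant markers, with *Col1a1* at 53183 to 81706 reads per day 3 library and *Pdgfra* at 572 to 1508. Scaled to library size, *Pdgfra* was lower in the *siOct4*-labelled libraries at day 3, so this order is not that of every marker. The summed level of 7 pluripotency markers was 65.8 and 74.9 CPM in *siNcor1* and 25.0 and 25.1 CPM in the *siOct4*-labelled libraries at day 6, with 3 of 5 tested lower. At day 3 these sums were 1.36 and 0.812 CPM against 0.542 and 0.127 CPM, with 1 of 5 lower. This was *Nanog*, at 17 and 11 reads against 4 and 0 (log2 fold change −2.03, adjusted p = 0.0491), a call close to the threshold. *Nanog* passed the filter through day 6, where it had 123 to 390 reads per library. So did the 3 called at day 6, *Dppa5a*, *Esrrb* and *Tdgf1*, with 0 to 3 reads in each day 3 library. *Zfp42*, a defining marker of pluripotent cells, had at most 3 reads in every library. All 10 fibroblast markers were detected. The summed levels of 6 keratinocyte markers were 9.58 and 11.3 CPM against 4.54 and 5.09 CPM at day 6, with 1 of 2 tested lower. The lower one was *Krt14*, which had 1 to 3 reads in each day 3 library and also passed the filter through day 6. The part of these cell mixtures in the differences of the Wnt genes was not tested. No tested endothelial, macrophage, neural crest or skeletal muscle marker was called at either day, with sums of 17 to 21.9, 11.3 to 12.8, 11.4 to 16.9 and 16.6 to 28 CPM at day 6.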

How the data were processed

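RNA-seq libraries of 8 samples were grouped by the siRNA and the day in their labels, with replicate numbers from their titles. The authors prepared them from 200 ng of total RNA with the Kapa RNA HyperPrep kit with RiboErase, sequenced them as paired reads of 43 bp and aligned them to mm10 (GRCm38) with STAR (2.5.2b per the labels). The tool, annotation and strand setting that counted reads on genes are not given in the sources used here. The authors deposited log2-cpm values made with edgeR 3.20.9. No columns of other samples or of the authors' own comparisons were used.

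The lowest deposited value, −2.87, stands for 0 reads. Subtracting it on the linear scale left whole multiples of 1 read in 100% of values, within a tolerance of 0.1 read, which gave the CPM and reads printed. No library repeated another: between replicates the chi-square of the reads was 8.44 to 18.7 times its degrees of freedom. Precision rests on 2 libraries per group, and intervals and floors cover counting error only.

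Tests used limma 3.58.1 in R 4.3.3 (lmFit, contrasts, eBayes with trend, two-sided) on the deposited log2 values of the 13866 genes that averaged 1 CPM or more, the 4 groups together, with Benjamini-Hochberg adjustment over all of them at 0.05. A fold change of low genes is understated by the constant in the deposited values. The 5 comparisons set the knockdowns against each other at day 3 and at day 6, day 6 against day 3 in either knockdown, and the former differences against each other (interaction). The script was tested on simulated data. The alternatives were median centring, quantile normalization, totals without *Gm26917*, voom on recovered reads, other filters and pseudocounts, no trend, the replicate block, only the groups compared, and each library left out.

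Values in every library are given for members with an adjusted p under 0.05 and a log2 fold change of at least 1 in size in any comparison, and for *Axin2*, *Lef1*, *Tcf7*, *Tcf7l1*, *Lrp5*, *Lrp6*, *Znrf3* and *Rnf43*. *Dkk1* and other members are given by reads or ranges. In each pathway list the 2 most positive and 2 most negative called genes of day 6 are named, with *Ctnnb1*, *Gsk3a* and *Gsk3b*. The members and lists were chosen with earlier results of these data known. Coordinates and exon lengths come from GENCODE M21 (GRCm38), matched by Ensembl identifier for 18969 of 18990 genes. Figures were drawn with matplotlib 3.10.9.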

Additional observations from a re-analysis of the deposited data

Results flagged for a closer look

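The difference between the knockdowns changed from day 3 to day 6, by a test of the interaction in limma with Benjamini-Hochberg adjustment over 13866 genes, for 14 Wnt genes, against 7.77% of all tested genes in the positive and 12.9% in the negative direction. Values are log2 fold changes, the *siOct4*-labelled libraries minus *siNcor1*, and the change is day 6 minus day 3. *Dkk4* and *Wnt7b* passed the filter through day 6 and had few reads at day 3. Among the 34 members with every group mean at 1 CPM or more, 2 changed in the positive and 10 in the negative direction. Of all such genes, 7.73% and 13.5% did. Explanations were not weighed. In the libraries of day 6 with the larger *Dkk4* and *Wnt7b* values, the summed pluripotency markers were also higher and the fibroblast markers were higher, as given above.

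*Dkk4* changed by −2.57 (adjusted p = 0.016), from −0.26 at day 3 and −2.82 at day 6, with 1 read in all day 3 libraries, so that the fitted change is no measured fold. Taking the totals without *Gm26917* gave −1.93 with an adjusted p of 0.277 for it, and leaving out in turn either *siNcor1* day 6 library gave a log2 fold change between −2.73 and −2.40 with an adjusted p between 0.0566 and 0.11. *Wnt7b* changed by −2.33 (adjusted p = 0.0244), from −0.20 at day 3 and −2.54 at day 6, and leaving out in turn replicate 2 of *siNcor1* day 3, replicate 2 of *siOct4*-labelled day 3, either *siNcor1* day 6 library or replicate 1 of *siOct4*-labelled day 6 gave a log2 fold change between −2.37 and −1.93 with an adjusted p between 0.0501 and 0.107.

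The genes *Dkk3*, *Wnt5a*, *Rspo2* and *Fzd1* went from positive values at day 3 to negative values at day 6, where the values at day 3 did not pass the test. *Dkk3* changed by −1.59 (adjusted p = 0.00074), from 0.61 at day 3 and −0.98 at day 6. *Wnt5a* changed by −1.48 (adjusted p = 0.0009), from 0.55 at day 3 and −0.93 at day 6. *Rspo2* changed by −1.55 (adjusted p = 0.00693), from 0.44 at day 3 and −1.12 at day 6, and *Fzd1* by −1.21 (adjusted p = 0.0009), from 0.13 at day 3 and −1.09 at day 6. These 4 calls held on leaving out each library in turn.

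*Sfrp1* changed by −1.10 (adjusted p = 0.00306) and its call also held without each library. *Wnt4* changed by −1.02 (adjusted p = 0.0313), and leaving out in turn replicate 2 of *siNcor1* day 3, either *siOct4*-labelled day 3 library or replicate 2 of *siNcor1* day 6 gave a log2 fold change between −1.11 and −0.73 with an adjusted p between 0.067 and 0.153, and no trend of the variance gave 0.0802. *Sfrp2* changed by −0.84 (adjusted p = 0.0179), and leaving out in turn replicate 1 of *siNcor1* day 3, replicate 2 of *siOct4*-labelled day 3 or replicate 2 of *siNcor1* day 6 gave a log2 fold change between −0.76 and −0.75 with an adjusted p between 0.0649 and 0.0904. *Axin2* changed by −0.82 (adjusted p = 0.0241), from −0.50 at day 3 and −1.32 at day 6, and leaving out in turn either *siNcor1* day 3 library, replicate 1 of *siOct4*-labelled day 3 or replicate 2 of *siNcor1* day 6 gave a log2 fold change between −0.86 and −0.68 with an adjusted p between 0.0528 and 0.123, and no trend of the variance gave 0.0572. For *Fzd2* the change was −0.77 (adjusted p = 0.0262), and leaving out in turn replicate 2 of *siNcor1* day 3, either *siOct4*-labelled day 3 library or either *siNcor1* day 6 library gave a log2 fold change between −0.83 and −0.56 with an adjusted p between 0.0654 and 0.121, and no trend of the variance gave 0.0661. For *Fzd7* it was −0.58 (adjusted p = 0.0378), and leaving out in turn either *siNcor1* day 3 library, either *siOct4*-labelled day 3 library, either *siNcor1* day 6 library or replicate 2 of *siOct4*-labelled day 6 gave a log2 fold change between −0.66 and −0.45 with an adjusted p between 0.0534 and 0.155, while median centring, quantile normalization, totals without *Gm26917* and no trend of the variance gave between 0.0509 and 0.0942.

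*Lef1* and *Wnt2b* changed in the positive direction. *Lef1* changed by 1.25 (adjusted p = 0.0136), from −0.37 at day 3 and 0.88 at day 6, and leaving out in turn replicate 2 of *siNcor1* day 3 or replicate 2 of *siNcor1* day 6 gave a log2 fold change between 1.23 and 1.25 with an adjusted p between 0.0504 and 0.0682. *Wnt2b* changed by 1.65 (adjusted p = 0.0131), from −0.04 at day 3 and 1.61 at day 6, and without replicate 2 of *siNcor1* day 3 the log2 fold change was 1.43 with an adjusted p of 0.0855.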

How the results depend on the processing

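Each call of a single Wnt gene was recomputed under up to 19 alternatives, which gave 1458 values with the same direction and call, 164 with the same direction and no call, and none reversed. A filter of at least 10 CPM, which left 23 members, called 13 members at day 6 (23 in the report), 11 between the days in *siNcor1* (19) and 17 in the *siOct4*-labelled libraries (32). The other calls were of members no longer tested, except that of *Lrp5* between the days in the *siOct4*-labelled libraries, which was tested and lost (adjusted p = 0.0515). Fitting only the groups compared called 1 member at day 3 (0). Without the trend of the variance, 1 other pathway gene was called at day 3 (2). Leaving out 1 library in turn called 0 to 2 members at day 3, 15 to 25 at day 6, 11 to 21 between the days in *siNcor1*, 22 to 30 in the *siOct4*-labelled libraries and 6 to 16 in the interaction. For the other pathway genes it called 0 to 3 at day 3, 23 to 43 at day 6 (44), 20 to 46 between the days in *siNcor1* (37), 43 to 52 in the *siOct4*-labelled libraries (49) and 14 to 34 in the interaction (31). A library left alone in its group is assumed to vary like the others.

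The labels do not say whether same-numbered libraries belong together. Their deviations correlated between −0.0395 and 0.281 over genes, with the highest value between the knockdowns at day 6, which does not settle it. The replicate block called 0, 23, 20, 32 and 14 members in the 5 comparisons, in the order above, and 2, 48, 39, 49 and 34 other pathway genes.

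No called member changed sign under another scaling. Totals without *Gm26917* moved the median of all genes by 0.13 between the days in the *siOct4*-labelled libraries, and the share of calls that were higher there from 42.1% to 52.5%. Voom moved that share at day 3 from 35.1% to 55.1%. Depth limits members with few reads, since 3 reads are 0.174 to 0.380 CPM.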
